A study of Mus musculus with 4 samples.

Results

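The proneural basic helix-loop-helix (bHLH) factors described here are the neurogenin genes Neurog1, Neurog2 and Neurog3, the NeuroD genes Neurod1 and Neurod4, and the NSCL genes Nhlh1 and Nhlh2. They were chosen by name, as 7 of the 27998 genes listed in a single-cell RNA count table of the developing hypothalamic arcuate nucleus (ARC), and each had a UMI (a unique molecular identifier, which counts 1 captured RNA molecule) in more than 3 cells. The cells came from embryonic day 15 (E15) C57BL/6 embryos of the Pomc-eGfp line, whose fluorescent reporter marked the region to dissect, and the tissue of several embryos was combined before papain dissociation. No other genotype, treatment or age was sampled, and the 4 deposited samples are 4 sequencing runs of 1 droplet library whose titles write the stage as E15.5. Cells cannot be traced to a run or an embryo, so all values describe 1 sample, no statistical test was possible, and the 95% intervals given with the values cover counting error only.

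Proneural bHLH factors are transcription factors that bind the DNA motif CANNTG, the E-box, together with E proteins such as Tcf3, Tcf4 and Tcf12. Neurogenins act early, in dividing progenitors and their immediate daughters, where they induce Notch ligands such as Dll1 while Hes genes downstream of Notch hold them in check. NeuroD and NSCL genes are classical targets further along the same path and are found mostly in cells that have left the cell cycle. In the hypothalamus, Neurog3 is known from progenitors of arcuate neurons, Nhlh2 from neurons that control body weight and puberty, and Neurod1 and Neurod4 also act in the anterior pituitary, the gland that lies just under the arcuate region.

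The members lie on 5 chromosomes of GRCm38, the assembly called mm10 in the processing notes. In GENCODE vM21, Neurog1 is at chr13:56250478-56252163 on the minus strand, Neurog2 at chr3:127633135-127635631 on the plus strand and Neurog3 at chr10:62133090-62134763 on the plus strand. Neurod1 is at chr2:79452521-79456751 and Neurod4 at chr10:130268152-130280240, both on the minus strand. Nhlh1 is at chr1:172052292-172057573 on the minus strand and Nhlh2 at chr3:102010076-102015492 on the plus strand. Exons of Neurod1 share 201 bases with Cerkl on the same strand, so that reads there could have been divided between them, but Cerkl had only 20 UMIs in all kept cells. Neurog3 shares 273 exonic bases with Fam241b on the opposite strand.

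Promoters are shown for Neurog2, Neurod4 and Nhlh1, which were found in the same cells more often than independent detection would give, and for Neurog3, as another neurogenin to set beside Neurog2. Each is the 250 bases before the start of the gene in RefSeq on GRCm38.p6, written 5′ to 3′ on the strand of the gene, with E-boxes in capitals. The windows are chr3:127632886-127633135 on the plus strand for Neurog2, chr10:130280255-130280504 on the minus strand for Neurod4 (the first of 2 starts), chr1:172057597-172057846 on the minus strand for Nhlh1 and chr10:62132840-62133089 on the plus strand for Neurog3.
Neurog2: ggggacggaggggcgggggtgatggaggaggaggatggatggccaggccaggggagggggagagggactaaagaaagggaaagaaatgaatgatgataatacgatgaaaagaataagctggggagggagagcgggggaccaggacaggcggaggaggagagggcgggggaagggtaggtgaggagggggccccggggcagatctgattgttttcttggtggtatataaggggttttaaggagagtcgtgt
Neurod4: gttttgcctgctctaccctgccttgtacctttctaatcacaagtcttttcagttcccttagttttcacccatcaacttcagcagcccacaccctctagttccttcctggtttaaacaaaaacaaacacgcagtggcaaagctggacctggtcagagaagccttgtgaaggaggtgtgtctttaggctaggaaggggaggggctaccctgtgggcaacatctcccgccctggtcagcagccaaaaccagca
Nhlh1: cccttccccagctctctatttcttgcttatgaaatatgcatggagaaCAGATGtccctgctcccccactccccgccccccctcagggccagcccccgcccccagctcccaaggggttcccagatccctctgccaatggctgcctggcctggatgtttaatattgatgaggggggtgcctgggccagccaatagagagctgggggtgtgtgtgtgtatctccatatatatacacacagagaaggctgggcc
Neurog3: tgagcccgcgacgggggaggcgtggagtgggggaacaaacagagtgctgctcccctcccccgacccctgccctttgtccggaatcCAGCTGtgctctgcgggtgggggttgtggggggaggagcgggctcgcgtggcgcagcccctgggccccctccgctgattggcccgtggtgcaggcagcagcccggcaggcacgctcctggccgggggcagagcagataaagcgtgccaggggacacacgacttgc
The search covered the E-box and 4 of its exact forms, each on both strands and each form also counted as an E-box. Of 32851 promoter windows of this length, 66.2% held the E-box, while 14.4% held the form CAGATG, 13% held the form CAGCTG, 17.2% held the form CACCTG and 6.02% held the form CACGTG. The windows of Neurog1, Neurog2 and Neurod4 held no E-box. That of Nhlh1 held 1 CAGATG, that of Nhlh2 1 CAGATG among 2 E-boxes, that of Neurog3 1 CAGCTG, and that of Neurod1 1 E-box of another form. These are matches of letters in a short window and say nothing of binding.

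The table held 26277265 UMIs in 6465 barcodes, and 6351 cells with a median of 3338 UMIs (1748 to 16836) passed the limits on genes, mitochondrial UMIs and hemoglobin that the methods state, which is more cells than the study itself analysed. Progenitors were defined by at least 1 UMI of Sox2, a neural stem cell factor, and at most 1 of Stmn2, a tubulin-binding protein of neurons; there were 847 of them, 13.3% of the cells. Neurons, with at least 2 UMIs of Stmn2, numbered 4006 (63.1%), and 1498 cells had no Sox2 and at most 1 Stmn2. The labels call the sample arcuate nucleus neurons, but 702 cells had at least 2 UMIs over a set of pituitary genes that includes Pitx1, Lhx3, Pou1f1 and Cga, and at most 1 of Stmn2, and 174 cells carried vessel, fibroblast or macrophage genes. The pituitary group took 185 of the 847 progenitors and 517 of the cells with neither marker. In the 662 other progenitors, all 8 pituitary markers were still detected, at a summed level of 24.5 counts per 1000000 UMIs (CPM) against 2404 in the pituitary group. Progenitors are described both with and without the pituitary group where it matters, and the values without it were added after seeing the data.

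The members together had 7482 UMIs, and they differed widely in how many cells they marked. Nhlh2 had 5722 UMIs in 1761 cells, with 398 cells at 5 or more UMIs and a highest value of 25. Neurod1 had 1075 UMIs in 599 cells and up to 13 in a cell. Neurod4 (251 UMIs in 173 cells), Neurog2 (223 in 145) and Nhlh1 (158 in 139) each marked between 2% and 3% of all cells. Neurog1 (31 UMIs in 29 cells) and Neurog3 (22 UMIs in 15 cells) were at the edge of detection, and their values carry wide intervals. At least 1 member was found in 2240 cells (35.3%), but once Nhlh2 is left out only 920 cells (14.5%) had one.

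Nhlh2 was a gene of neurons, with 94.8% of its UMIs in them and 1.31% in progenitors. Of the UMIs of the neurogenins, a part lay in each class: neurons held 46.6% of the UMIs of Neurog2, 27.3% of those of Neurog3 and 25.8% of those of Neurog1. Neurod4 had 62.5% of its UMIs, and Neurog3 11 of 22, in the cells with neither marker. For Neurod4 these were mainly pituitary cells, for Neurog3 not, since no cell of the pituitary group had a Neurog3 UMI. These shares follow the number of cells in each class as well as the level per cell, and the levels below are scaled to the UMIs of each class.

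Outside the pituitary and vessel groups, the 810 cells with neither marker had the highest level of every member but Nhlh2. Their median depth was 2575.5 UMIs, against 2984.5 in progenitors and 3408.5 in neurons. A cell with no Sox2 UMI may still carry the transcript, so these cells are a mixed class and not a defined stage. Neurog2, which commits progenitors to a neuronal fate, stood at 31.6 CPM (24.8 to 39.9) in these cells, 18.8 (13.8 to 25.1) in progenitors and 6.73 (5.50 to 8.16) in neurons, and no pair of these intervals overlapped but the first by a small margin. Neurog1, which is close to Neurog2 in sequence and use, had the same order at lower levels, with 6.15 (3.36 to 10.3), 3.68 (1.68 to 6.99) and 0.518 (0.224 to 1.02) CPM, but its first 2 values did not differ beyond their intervals. Neurog3, with 4.83 (2.41 to 8.65), 2.05 (0.664 to 4.77) and 0.388 (0.143 to 0.845) CPM, had intervals that were apart between the cells with neither marker and neurons and overlapped for the other pairs of classes.

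The later factors did not share that order. Neurod1, a factor of neuronal differentiation, was at 46.1 CPM (37.7 to 55.9) in the cells with neither marker and 38.1 (35.0 to 41.3) in neurons, which overlap, and at 11.5 (7.61 to 16.6) in progenitors. Neurod4 stood at 15.8 (11.1 to 21.9) in the cells with neither marker and at much the same level in progenitors (3.68, 1.68 to 6.99) and neurons (3.95, 3.02 to 5.07). Nhlh1 was at 14.1 (9.62 to 19.9) CPM there, at 3.68 (1.68 to 6.99) in progenitors and at 4.98 (3.93 to 6.23) in neurons. Nhlh2 alone was higher at each step, with intervals that do not overlap, from 25 (19.1 to 32.1) CPM in progenitors to 83.5 (72.1 to 96.3) in cells with neither marker and 351 (342 to 361) in neurons.

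**Figure D1:**
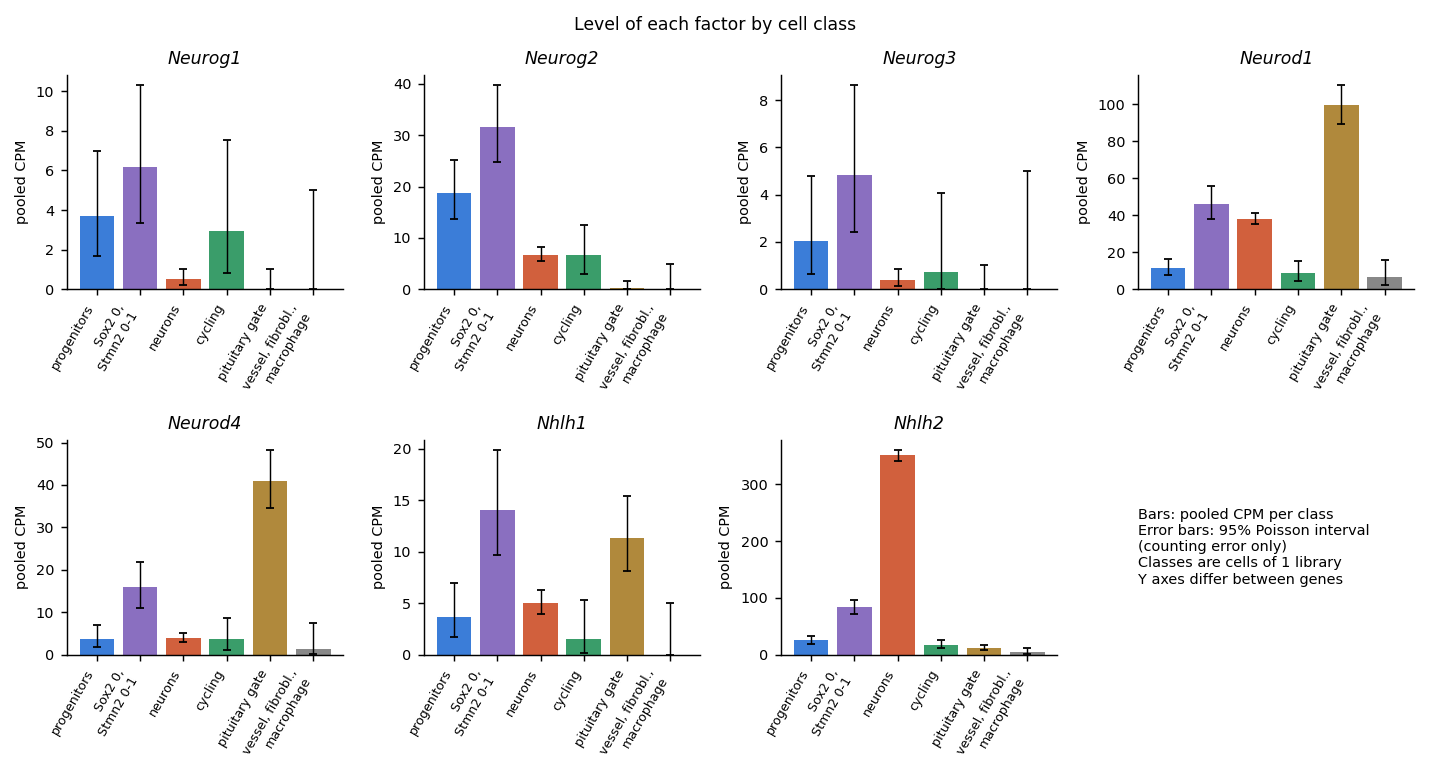
Pooled CPM (y axis, from 0, scaled separately for each gene) of the 7 factors in 6 cell classes, with 95% Poisson intervals as error bars; progenitors and the cells with Sox2 at 0 and Stmn2 at 0 or 1 are those outside the pituitary and vessel groups, and cycling cells are drawn from all classes. Nhlh2 is highest in neurons at 351 CPM, Neurod1 and Neurod4 are highest in the pituitary group at 99.5 and 41.0 CPM, and the 3 neurogenins are highest in the cells with neither marker.

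The 174 vessel, fibroblast and macrophage cells give a measure of free RNA, with a median of 3634 UMIs against 3409 in neurons. As they were chosen to have no Sox2 and at most 1 Stmn2 UMI, these 174 cells may understate free RNA from progenitors and neurons. Neurod1 and Nhlh2 each had a UMI in 3 of these cells (1.72%, 0.357% to 4.96%) and Neurod4 in 1 (0.575%), while Neurog1, Neurog2, Neurog3 and Nhlh1 had none, which at 3 counts allows up to 1.72% of the cells to hold a UMI. The share of neurons with a UMI was 39.7% (38.2% to 41.2%) for Nhlh2 and 9.31% (8.43% to 10.3%) for Neurod1, both well above that background; with every cell thinned to 2167 UMIs they were 32.4% and 6.39%. For Nhlh1 (1.65% of neurons), Neurod4 (1.10%), Neurog1 (0.200%) and Neurog3 (0.125%) the share over all neurons is no higher than this background can allow and is not read as expression. The vessel group allows up to 15.8 CPM of Neurod1, 11.9 of Nhlh2 and 7.56 of Neurod4 (upper Poisson limits), and up to 4.07 CPM, or 3 counts, each of Neurog1, Neurog2, Neurog3 and Nhlh1 as background, and a class or group of cells under that level is not read as expressing the gene, so that a ratio of values under it is given as a description of the UMIs. Neurog2 was found in 1.77% of neurons, about the most this background allows, and in 1.02% after thinning, but in 1 of 702 pituitary cells (0.142%), although these were deeper, with a median of 4167 UMIs.

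Compared directly as the rule defines them, pituitary cells included, progenitors and neurons differed by 2-fold or more for 2 of the 5 members with at least 20 UMIs over both groups. Neurod4 was higher in progenitors, at 8.91 against 3.95 CPM, 2.26-fold (1.43 to 3.50), which is 1 of 5 where 20.4% of all 13321 genes counted were as much higher. Nhlh2 was lower, at 20.3 against 351 CPM, 17.3-fold (13.8 to 22.1), which is 1 of 5 where 13.8% of all genes were as much lower. Neurog2 stood at 12.4 against 6.73 CPM, 1.85-fold (1.28 to 2.64), Neurod1 at 30.0 against 38.1 and Nhlh1 at 4.32 against 4.98. The excess of Neurod4 was not counted with a mitochondrial limit of 5%, and its direction turned with at least 2 UMIs of Sox2 asked of progenitors.

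Leaving out the pituitary group changed which members stood apart. The 185 pituitary cells among the progenitors held 24 of the 33 Neurod4 UMIs and 83 of the 111 Neurod1 UMIs of that class, but no UMI of Neurog1, Neurog2 or Neurog3. In the other 662 progenitors Neurod4 was at 3.68 CPM, 0.933 of its level in neurons (0.407 to 1.89), so its excess was gone. Neurog2 was then 2.80-fold higher in progenitors than in neurons (1.93 to 3.99) and Neurod1, whose 11.5 CPM in progenitors was within the background, 3.32-fold lower (2.27 to 5.04). Nhlh2 kept its direction at 14.1-fold lower (10.9 to 18.4), and Nhlh1, 1.35-fold lower, had an interval that spans equal levels (0.677 to 3.07). Neurog1, with 9 UMIs against 8, was 7.11-fold higher (2.44 to 21.2), and Neurog3, with 5 against 6, was 5.27-fold higher (1.27 to 20.7), but for both genes the level of each class, 3.68 and 0.518 CPM and 2.05 and 0.388 CPM, was within the background.

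Stmn2 itself gives a finer scale for the step from precursor to neuron, and 3 patterns were seen along it in cells outside the pituitary and vessel groups. Neurog2 was highest where Stmn2 was absent, at 28.3 CPM, and stood at 17.4, 10.0, 8.78 and 4.01 CPM in cells with 1, 2 to 4, 5 to 9, and 10 or more Stmn2 UMIs. Neurog1 and Neurog3 had 23 of 31 and 16 of 22 UMIs in cells with 0 or 1 Stmn2 UMI. Neurod4 and Nhlh1 were at like levels in the first 3 classes. Neurod4 was at 9.44, 9.74 and 11 CPM in the first 3 classes and at 2.93 and 1.60 CPM in the last 2, so that neurons with 10 or more Stmn2 UMIs had 6.85-fold less than those with 2 to 4 (3.47 to 14.5). Nhlh1 followed with 8.22, 9.74 and 10.0 and then 5.23 and 2.67 CPM, 3.76-fold less (2.09 to 6.94). The intervals of both at 2 to 4 Stmn2 UMIs, 7.65 to 15.3 CPM for Neurod4 and 6.87 to 14.2 for Nhlh1, lay above the background, and their levels at 10 or more were within it, as was that of Neurog2.

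Neurod1 and Nhlh2 were found in the classes richest in Stmn2 as well. Neurod1 was between 27.1 and 45.6 CPM, with 28.6 (23.1 to 35.0) at 0 Stmn2 UMIs, 45.6 (39.7 to 52.1) at 5 to 9 and 31.3 (27.4 to 35.5) at 10 or more, so that it was highest in between, beyond the intervals. Nhlh2 went from 36.2 CPM at 0 through 91.9, 192 and 369 to 407 CPM at 10 or more, 2.12-fold over the class with 2 to 4 (1.94 to 2.32). Cells with Stmn2 at 0 but without Sox2 had more Neurod4 than those with Sox2, at 17.7 (11.7 to 25.5) against 1.77 (0.364 to 5.16) CPM, and more Neurod1, at 46.7 (36.7 to 58.6) against 11.8 (7.19 to 18.2). For Neurog2 the values were 36.6 (27.8 to 47.3) and 20.6 (14.4 to 28.7) CPM, with a slight overlap. The classes differ in depth, with a median of 2681 UMIs at Stmn2 0 and 4471 at 10 or more, and the share of cells with Neurog2 after thinning was 4.42% at the one end and 0.331% at the other, the same order as the CPM.

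**Figure D2:**
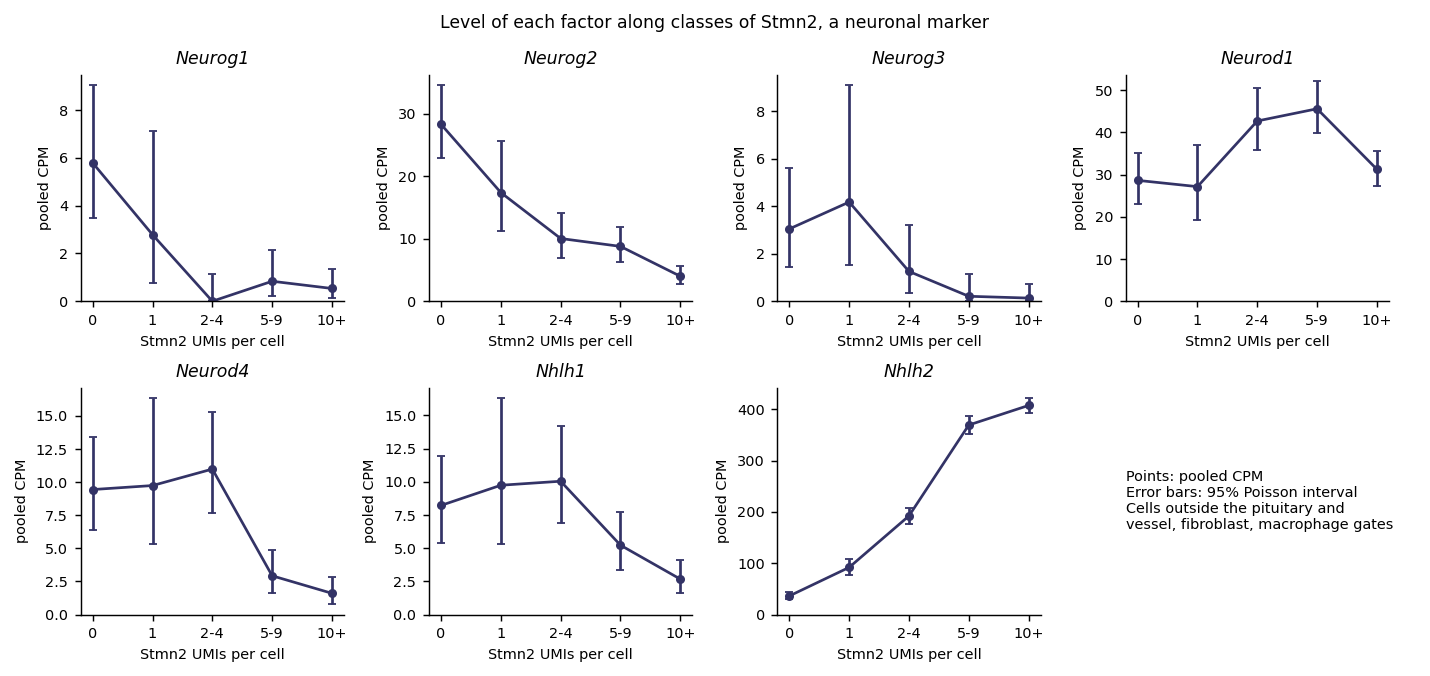
Pooled CPM (y axis, from 0, scaled separately for each gene) against classes of Stmn2 UMIs per cell (x axis), outside the pituitary and vessel groups, with 95% Poisson intervals. Neurog2 goes from 28.3 to 4.01 CPM, Neurod4 and Nhlh1 are lower past the class with 2 to 4 UMIs, Neurod1 lies between 27.1 and 45.6 with its highest value at 5 to 9, and Nhlh2 goes from 36.2 to 407.

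Cycling cells, with at least 3 UMIs over Mki67 and Top2a, genes of proliferating cells, held few UMIs of the members. Of the 847 progenitors 130 were cycling, and all 4 members with at least 20 UMIs in progenitors were at least 2-fold lower in them than in the 717 others, where 10.9% of 10671 genes were as much lower; none of the 4 was 2-fold higher, where 5.63% of genes were. Neurod1 had 7.19 against 36.6 CPM, 5.09-fold less (2.26 to 14.2), and Nhlh2 5.99 against 24.4, 4.07-fold less (1.66 to 12.9). Neurod4, with 1 UMI against 32, was 9.31-fold lower (1.55 to 379). Neurog2, with 5 against 41 UMIs and 5.99 against 14.3 CPM, was 2.39-fold lower, but its interval spans equal levels (0.943 to 7.73). Neurog1 was at 2.4 CPM in cycling and 2.44 in non-cycling progenitors, from 2 and 7 UMIs. Of the markers counted, 4 of 8 pituitary and 4 of 7 neuron genes were at least 2-fold lower in cycling progenitors, and 2 of 4 vascular genes higher. Of 5 fibroblast genes 1 was higher and 1 lower. The part of such cells in the ratios was not tested.

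Cycling cells were deeper, with a median of 5471 UMIs against 3127 in the other progenitors, which leaves CPM on the same scale but makes detection easier. Outside the pituitary group, Neurod1 was 1.46-fold lower in cycling progenitors with an interval that spans equal levels (0.541 to 4.90). Neurog2 was 2.59-fold lower (1.03 to 8.41) and Nhlh2, with 3 UMIs against 58, 6.12-fold lower (1.99 to 30.5), while Neurod4 had no UMI against 9. Over all 207 cycling cells, Neurog1 had 4 UMIs (2.93 CPM) against 27 (1.17 CPM) in the rest, a ratio of 2.51 (0.638 to 7.20) that the counts cannot tell from equal levels, and Neurog2 stood at 6.60 against 9.28 CPM.

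Nkx2-1 is the homeobox factor that marks the ventral hypothalamic field from which arcuate neurons arise, and it was found in 1820 of the 6351 cells. A cell with no Nkx2-1 UMI may still carry the transcript, so the 4531 negative cells are a mixed class. Neurons with Gbx2, a gene best known from the developing thalamus, held 46 of the 104 neuronal Neurog2 UMIs. Those with Robo3 held 259 of the 588 neuronal Neurod1 UMIs. Neither group was taken out of the Nkx2-1 comparisons, and their part in the ratios was not tested. The comparison over all cells was added after the others had been computed. In it, 5 of the 7 members were at least 2-fold lower in Nkx2-1-positive cells, where 9.68% of 14097 genes were, and 1 was at least 2-fold higher, where 2.15% were. Neurog2 had 5 UMIs in positive and 218 in negative cells, 0.686 against 12.7 CPM, 18.6-fold lower (7.83 to 57.7). Neurod4 had 6 against 245, 17.4-fold lower (7.87 to 47.8), and Neurog1 1 against 30, 12.8-fold lower (2.12 to 521). Nhlh1 was 3.78-fold lower (2.25 to 6.79) and Neurod1 3.52-fold lower (2.90 to 4.30). Of the 702 cells of the pituitary group 677 were Nkx2-1-negative, and 8 of 8 pituitary, 6 of 6 macrophage, 5 of 6 fibroblast and 4 of 7 vascular markers were also at least 2-fold lower in positive cells. Outside the pituitary and vessel groups, Neurod4 was 10.9-fold lower (4.53 to 34.4), Neurog2 23.5-fold (9.90 to 73.0), Nhlh1 4.02-fold (2.29 to 7.60) and Neurod1 3.36-fold (2.71 to 4.19), and Neurog1, with 1 UMI against 30, 16.2-fold (2.70 to 662).

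Neurog3 went the other way, with 13 UMIs in Nkx2-1-positive and 9 in negative cells, 1.78 against 0.525 CPM, 3.39-fold higher (1.34 to 9.0). Both levels are under the 4.07 CPM that the vessel group allows as background, so this is a ratio of scarce UMIs and is not read as expression. Of its 15 cells, 9 had an Nkx2-1 UMI (60%, 32.3% to 83.7%), against 5 of the 145 Neurog2 cells (3.45%) and 28.7% of all cells. Tbx3, a T-box factor of the ventral hypothalamus, was found in 5 of the 15 Neurog3 cells (33.3%), too few to read a link from. Outside the pituitary and vessel groups, the excess of Neurog3 in Nkx2-1-positive cells was 2.67-fold (1.06 to 7.08). There, in the cells with neither marker, Neurog3 was at 9.64 CPM in positive and 3.02 in negative cells, 3.19-fold higher (0.811 to 13.2). The 9.64 CPM is above the background but rests on 6 UMIs, and the interval of the ratio spans equal levels. With every cell thinned to 2167 UMIs, or with at least 2 Nkx2-1 UMIs asked of positive cells, Neurog3 had too few UMIs to be counted.

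Among progenitors, 3 of the 4 members counted were at least 2-fold lower in the 290 Nkx2-1-positive cells, where 7.92% of 10671 genes were, and none was 2-fold higher, where 5.84% were. Neurog2 had no UMI in them and 46 in the 557 negative progenitors, 6.67-fold lower with 3 counts taken as the floor for a class at 0. Neurod4 had none against 33, 4.78-fold lower at that floor, and Neurod1 15.2 against 36.4 CPM, 2.4-fold lower (1.42 to 4.30). Nhlh2, at 25.8 against 17.8 CPM, was 1.45-fold higher (0.878 to 2.36). Of the negative progenitors 172 belonged to the pituitary group and of the positive ones 13, and all 8 pituitary markers were at least 2-fold lower in the positive progenitors. Without that group, the absence of Neurog2 remained, with 0 against 46 UMIs, 11.1-fold lower at the floor and 8.69-fold at the bound of the interval. Neurod1 was then 1.31-fold lower (0.572 to 3.17) and Neurod4 had 0 against 9 UMIs.

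Among neurons, from which the rule of the pituitary group takes no cell, 4 of the 5 members counted were at least 2-fold lower in the 1272 Nkx2-1-positive cells, where 4.32% of 12590 genes were, and none was 2-fold higher, where 1.82% were. Neurog2 had 5 against 99 UMIs, 10.7-fold lower (4.44 to 33.8), and Neurod4, with 3 against 58, 10.5-fold lower (3.41 to 52.3), with its level of 5.79 CPM in negative neurons still within the background. Nhlh1 was at 1.84 against 6.69 CPM, 3.63-fold lower (1.86 to 7.91). Neurod1 was at 15.3 CPM, within the background, against 50.4, 3.30-fold lower (2.61 to 4.21). Nhlh2 differed least, at 232 against 415 CPM, 1.79-fold lower (1.68 to 1.90). The depths were close, with medians of 3544 and 3360 UMIs. The 8 pituitary markers, all detected, summed to 87.8 CPM in neurons, above the 24.5 of the progenitors outside the pituitary group, with 55.8 CPM in Nkx2-1-positive and 105 in negative neurons and up to 182 UMIs in a single negative neuron. Of the markers counted, 2 of 7 pituitary, 2 of 4 macrophage, 2 of 7 vascular and 1 of 5 fibroblast genes were at least 2-fold lower in Nkx2-1-positive neurons and none was higher, and the part of these cells in the ratios was not tested. In the cells with neither marker outside the pituitary and vessel groups, Neurog2 again had no UMI in Nkx2-1-positive cells, against 72. That is 9.03-fold lower at the floor of 3 counts and 7.16-fold at the bound of the interval.

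**Figure D3:**
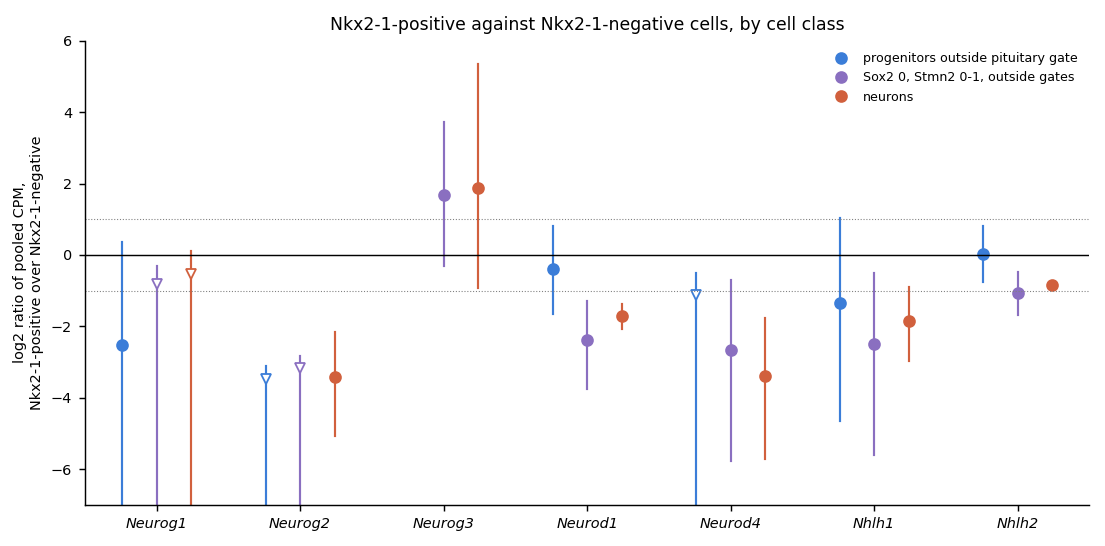
log2 ratio of pooled CPM in Nkx2-1-positive over Nkx2-1-negative cells (y axis) for each factor in 3 cell classes, with 95% intervals as lines that are drawn no lower than −7. Progenitors and the cells with neither marker are those outside the pituitary and vessel groups. Open triangles mark classes where the positive cells had no UMI, placed at the value for 3 counts, and dotted lines mark 2-fold. Neurog3 in progenitors is not drawn, with 3 UMIs or fewer on each side. Neurog2 lies far below 0 in all 3 classes, Neurog3 is the only factor drawn above 0 in the cells with neither marker and in neurons, with intervals that span 0, and Nhlh2 in progenitors lies close to 0.

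In the pituitary group, Neurod1 and Neurod4 were higher than in progenitors, neurons or the cells with neither marker. Neurod4 had 145 UMIs in 101 of these 702 cells, 57.8% of all its UMIs, and 41.0 CPM against 5.25 in the cells outside both groups, 7.80-fold higher (6.03 to 10.1). Neurod1 had 352 UMIs in 144 cells, 32.7% of its UMIs, and 99.5 against 35.7 CPM, 2.78-fold higher (2.44 to 3.17). Nhlh1 had 40 UMIs and was 1.93-fold higher (1.32 to 2.79). Nhlh2 was 23.1-fold lower at 12.2 CPM (17.2 to 32.0). Neurog2 had a single UMI, a ratio of 0.0257 (0.000648 to 0.145), and Neurog1 and Neurog3 had none, which at 3 counts allows up to 0.427% of the cells to hold a UMI and says less about how many express these scarce genes. Of the 173 Neurod4 cells, 105 (60.7%) had Pou1f1, the factor of the growth hormone, prolactin and thyrotropin lineages, and 6 (3.47%) had Tbx19, the factor of the Pomc-producing corticotropes, against 7.36% and 2.31% of the cells without Neurod4. Of the 599 Neurod1 cells, 92 (15.4%) had Pou1f1 and 83 (13.9%) had Tbx19, against 8.14% and 1.15% of the cells without Neurod1. In the vessel group the shares were 2.87% and 0.575%.

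Neurons positive for single markers were far from alike in their levels of these factors. Of the 104 Neurog2 UMIs in neurons, 46 were in the 98 cells with Gbx2, a homeobox gene best known from the developing thalamus. Neurog2 stood there at 125 CPM (91.3 to 166), 32.4-fold over the other neurons (5.02 on the log2 scale, 4.43 to 5.60), and was found in 31 of the 98 cells (31.6%; 21.1% after thinning). In the other marker groups it was between 0 and 10.2 CPM, with 23 UMIs in the 488 neurons with Kitl, the ligand of the Kit receptor.

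Neurod1 was concentrated in other neurons. The 394 neurons with Robo3, an axon guidance receptor, held 259 of its 588 neuronal UMIs, at 158 CPM (139 to 179), 6.64-fold over the other neurons (2.73 on the log2 scale, 2.49 to 2.97). In the 76 neurons with Neurod6, a bHLH gene of the same family, Neurod1 was at 233 CPM (183 to 293) and Nhlh1 at 54.3 (31.6 to 87.0), 6.86-fold and 13.7-fold over the rest. Neurod1 was at 47.7 CPM (36.7 to 60.9) in the 263 neurons with 3 or more UMIs of Pomc, close to the 38.1 of all neurons. It was at 12.8 CPM in the 750 neurons with Otp and 11.5 in the 1273 with Isl1, both homeobox factors of arcuate neurons, and both values are within the background.

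Nhlh2 was between 23.8 and 925 CPM in the neuronal groups. It was highest in the 34 neurons with Tac2, the neurokinin B precursor, at 925 CPM (758 to 1117), then in those with Kitl (759, 723 to 795) and Robo3 (700, 660 to 742), and neighbours in this order do not differ beyond their intervals. Neurons with Tbx3 (271, 248 to 295), Sox14 (247, 230 to 265) and Pomc (242, 216 to 270), which are markers or regulators of arcuate types, could not be told apart. It was lowest in the 105 neurons with Npy, a marker of future Agrp neurons (23.8, 11.4 to 43.8), and the 49 with Ghrh, the growth hormone-releasing hormone (29.8, 9.68 to 69.6), with 10 and 5 UMIs, 0.0661 and 0.0841 times the level of the other neurons, and both intervals reach below the 11.9 CPM allowed as background. These groups were formed by single genes and overlap, and they were not compared with one another over replicates.

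**Figure D4:**
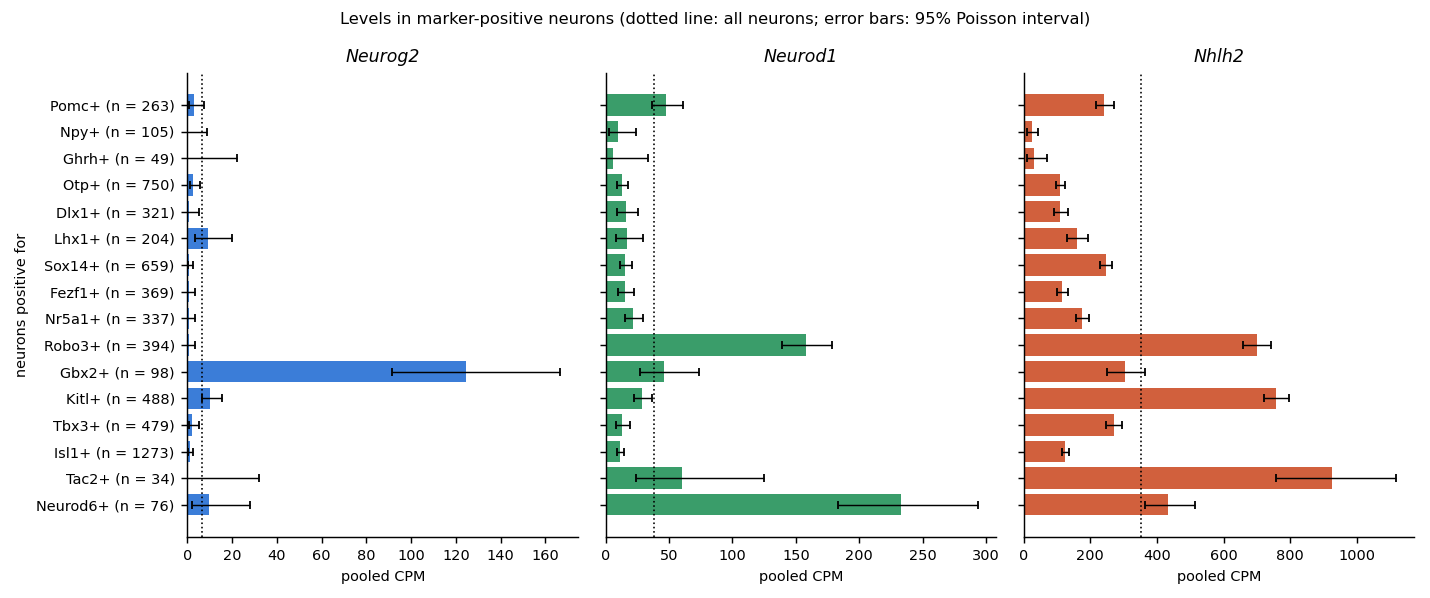
Pooled CPM (x axes, from 0) of Neurog2, Neurod1 and Nhlh2 in neurons positive for 1 marker gene each (y axis, with the number of cells), with 95% Poisson intervals; the dotted line is the level in all neurons. Neurog2 stands out in Gbx2-positive neurons at 125 CPM, Neurod1 in Robo3- and Neurod6-positive neurons at 158 and 233, and Nhlh2 in Tac2-, Kitl- and Robo3-positive neurons at 700 to 925.

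Progenitor groups split the members in a similar way. Neurog2 was at 125 CPM (76.5 to 193) in the 38 progenitors with Rgs13, a regulator of G protein signalling, 17.1-fold over the other progenitors, and at 38.9 (23.4 to 60.8) in the 93 with Barhl2, a homeobox gene. It was at 30.6 (21.6 to 42.2) in the 306 with Hes5, a Notch effector, 8.49-fold over the rest, and at 39.1 (25.3 to 57.7) in the 127 with Gadd45g, a gene of cells leaving the cycle. In the 132 with Rax, a factor of tanycyte progenitors, it had no UMI. Without the pituitary group these values were 132 CPM with Rgs13 (80.9 to 205), 11.7-fold over the rest, 41.1 with Barhl2 (24.8 to 64.2), 33.7 with Hes5 (23.7 to 46.5), 5.05-fold, and 83.8 with Gadd45g (54.2 to 124), 8.56-fold, and none with Rax.

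Neurod1 was at 61.0 CPM (43.4 to 83.4) in the progenitors with Gadd45g, 2.60-fold over the rest, and at 0.298 times the level of the rest in those with Hes5 (11.6, 6.34 to 19.4). Of the 53 Neurod1-positive progenitors 31 were in the pituitary group. Without it, Neurod1 was at 33.5 CPM (16.1 to 61.6) with Gadd45g, 4.0-fold over the rest (1.65 to 9.13), and no longer lower with Hes5 beyond counting error, at 0.794 times the rest (0.336 to 1.80). Neurod4 was at 23.5 CPM (13.1 to 38.7) in progenitors with Gadd45g, 3.99-fold over the rest, but 24 of its 33 progenitor UMIs were in the pituitary group. The other 9, from 5 cells, were all in cells with Gadd45g. Neurog1, with 4 of its 9 progenitor UMIs in the cells with Rgs13, followed Neurog2. The group with Rgs13 was deeper than all progenitors, with a median of 3867 UMIs against 3422.

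Pairs of members were found in the same cells more often than independent detection would give. Over all cells, 8 of the 21 pairs were seen at least 2 times as often as chance pairing gives with a lower bound above 1; of all pairings of a member with another gene found in at least 50 cells, 2.87% were. Neurog1 and Neurog2 shared 9 cells where 0.662 were expected, 13.6 times as many (6.22 to 25.8), and these were 31.0% of the Neurog1 cells and 6.21% of the Neurog2 cells. Neurod4 and Nhlh1 shared 25 cells, 6.60 times the expected 3.79 (4.27 to 9.75). Neurog2 and Nhlh1 shared 16 cells (5.04 times, 2.88 to 8.19), as did Neurog2 and Neurod4 (4.05 times, 2.32 to 6.58). Neurod1 and Nhlh1 shared 66 cells, 5.03 times the expected 13.1 (3.89 to 6.40), or 47.5% of the Nhlh1 cells and 11% of the Neurod1 cells. Neurog1 with Neurod4 (4 cells), Neurod1 with Neurod4 (37) and Nhlh1 with Nhlh2 (85) made up the 8.

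Deeper cells show more genes of every kind, which alone raises such ratios. With the expectation summed within 10 classes of UMI number, the ratio was 12.1 for Neurog1 with Neurog2, 5.05 for Neurod4 with Nhlh1, 4.49 for Neurod1 with Nhlh1, 4.33 for Neurog2 with Nhlh1 and 3.19 (1.82 to 5.18) for Neurog2 with Neurod4, and 7 pairs were counted rather than 8, while Neurod1 with Neurod4 (1.86) and Nhlh1 with Nhlh2 (1.89) were under 2 and Neurog3 with Nhlh1, on 2 cells, came in at 8.83 (1.07 to 31.9). Neurog2 and Nhlh2 shared 72 cells (1.79 times) and Neurod1 and Nhlh2 302 (1.82 times), both with intervals above 1. Neurog3 was found in no cell with Neurog1, Neurog2 or Neurod4, but fewer than 1 such cell was expected for each (0.0685, 0.342 and 0.409), so the absence carries no information at this depth.

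The pairs depended on the class of cells. In all progenitors, of which the pituitary group held 31 of the 53 cells with Neurod1 and 17 of the 22 with Neurod4, 3 of 21 pairs were counted, where 2.43% of all pairings were, and each included Neurod1: with Nhlh1 in 10 cells (10.7 times, 5.11 to 19.6), with Neurod4 in 8 (5.81 times, 2.51 to 11.5) and with Nhlh2 in 8 (2.84 times, 1.23 to 5.60). None was counted at 2 UMIs. Outside the pituitary group 5 pairs were counted, where 0.935% of all pairings were, and 3 with expectations within depth classes. The shares of all pairings take partner genes found in at least 50 cells of the class. Only Neurod1 of the members reached that in all progenitors, and none did outside the pituitary group. These shares are therefore not like for like with the member pairs. Outside the pituitary group Neurod1 and Nhlh1 shared 5 progenitors (18.8 times, 6.11 to 43.9) and Neurod1 and Nhlh2 6 (5.64 times, 2.07 to 12.3). Neurod1 and Neurod4 shared 1, which is 6.02 times the expected 0.166 with an interval that spans 1 (0.152 to 33.5). In neurons 5 of 21 were counted, where 2.01% of all pairings were, and 3 with expectations within depth classes, when Neurod1 with Neurod4 and Nhlh1 with Nhlh2 were lost. Neurod4 and Nhlh1 shared 8 neurons, 11 times the expected 0.725 (4.76 to 21.7), Neurog2 and Nhlh1 6 (5.13 times, 1.88 to 11.2), and Neurod1 and Nhlh1 24 (3.91 times, 2.50 to 5.81). Of the 66 neurons with Nhlh1, 54 (81.8%) also had Nhlh2, a ratio of 1.75 within depth classes. In the pituitary group, Neurod1 was found in 28 of the 37 Nhlh1 cells (3.69 times, 2.45 to 5.33). Outside the pituitary and vessel groups, Neurod4 with Nhlh1 stood at 12.7 times (7.39 to 20.3) and Neurog2 with Neurod4 at 7.93 times (4.44 to 13.1).

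**Figure D5:**
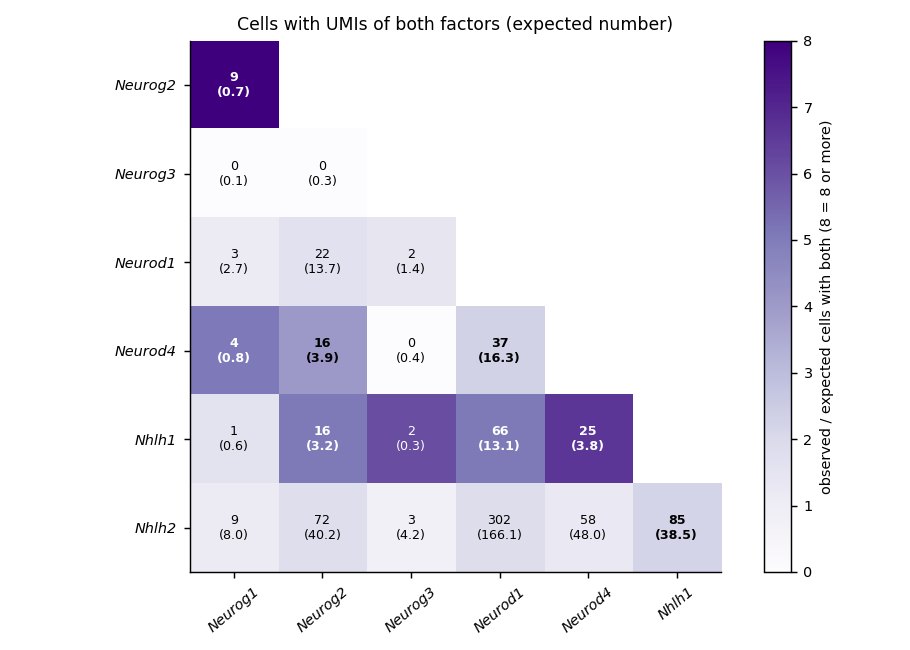
Number of cells with UMIs of both factors and, in brackets, the number expected under independent detection, over all 6351 cells; colour is the observed over the expected number, capped at 8, and bold marks the 8 pairs seen at least 2 times as often as chance pairing gives with a lower bound above 1. Neurog1 with Neurog2 and Neurod4 with Nhlh1 have the highest ratios among these, 13.6 and 6.60, and Neurog3 shares no cell with Neurog1, Neurog2 or Neurod4.

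The genes most like each member were ranked by their level in cells with its UMI over cells without, among genes found in at least 20% of these cells, for the 5 members with at least 50 cells. For Neurog2, over 145 cells, they were Gbx2 (21.8-fold), Gm29478 (13-fold), and the homeobox genes Dbx1 (12.4-fold), Shox2 (11.6-fold) and Barhl2 (9.60-fold). For Nhlh2, over 1761 cells, they were Pou4f1, a POU factor of sensory and habenular neurons (16.0-fold), Nwd2 (13.4-fold), Gng8, a G protein subunit (11.5-fold), Cbln2, a synaptic organizer (10.9-fold), and the homeobox gene Irx2 (9.72-fold). For Neurod4 they were A730046J19Rik (12.8-fold), the retinoid receptor Rxrg (12.7-fold), Gm42637 (11-fold), the thyroid hormone receptor Thrb (10.9-fold) and Pou1f1 (10.5-fold).

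For Neurod1, over 599 cells, Pomc led at 12.9-fold, followed by Cntn1, Robo3, Etv1 and Vav3 at 5.06-fold to 5.38-fold. In its 53 progenitors, 31 of them in the pituitary group, Tbx19 (56.5-fold) and Pomc (53.3-fold) led, followed by Cxcl14, Rbp4 and Tuba4a. Nhlh1 was led by Neurod2, a NeuroD gene of neurons (12.9-fold), then St18, a zinc finger factor (7.28-fold), the Notch modifier Mfng (6.60-fold), Ppp1r14a (6.60-fold) and Pomc (6.30-fold). Pomc thus stood among the genes most like Neurod1 and Nhlh1. It was found in 34.1% of the Neurod1 cells and 29.5% of the Nhlh1 cells, against 21% and 22.1% of the cells without them and 13.8% of the vessel group (9.04% to 19.8%), and it is also a product of pituitary corticotropes.

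The Notch genes, which act with the neurogenins in progenitors, were mostly higher in progenitors than in neurons. All 13 were counted, 9 were at least 2-fold higher, where 20.4% of all genes were, and none lower, where 13.8% were, with a median log2 ratio of 2.96 against 0.14 over all genes. Notch2 was 14.2-fold and Notch1 9.71-fold higher, Hes1 16.0-fold and Hes5 11.1-fold, and the ligand Dll1 3.87-fold, while Hes6, an antagonist of Hes1 that is found in neurons as well, differed 1.38-fold. Markers of other cells differed in the same direction, with 5 of 8 pituitary, 4 of 6 fibroblast and 3 of 5 counted macrophage markers at least 2-fold higher in progenitors, and their part was not tested. Without the pituitary group 9 Notch genes were again higher (17.9% of all genes) and none lower (15.2%), with a median of 1.95, while 5 of 7 counted pituitary markers were lower and none higher, and 4 of 6 fibroblast and 5 of 5 macrophage markers were higher. In cycling progenitors none of the 12 counted Notch genes was 2-fold higher (5.63% of all genes) and 4 were lower (10.9%), namely Dll1 (2.78-fold), Dll3 (4.85-fold), Mfng (3.0-fold) and Hes6 (2.20-fold), and the list had a median of −0.17 against −0.10 over all genes. Without the pituitary group 4 were lower (11% of all genes) and 1, the ligand Jag1, was 2.48-fold higher (6.23%). Between Nkx2-1-positive and negative neurons, 2 of the 13 were at least 2-fold higher (1.82% of all genes) and 1 lower (4.32%), Mfng, by 3.03-fold. Of the Neurog2 cells, 102 of 145 (70.3%) had Hes6, 64 (44.1%) Hes5 and 16 (11%) Dll1, against 33.4%, 10.7% and 4.37% of the cells without Neurog2, whose median depth was 3328.5 UMIs against 3614.

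Of the other bHLH and Id genes, 13 of 17 were counted between progenitors and neurons, 10 were at least 2-fold higher in progenitors (20.4% of all genes) and 1 lower (13.8%), with a median log2 ratio of 1.75. The E proteins Tcf3, Tcf4 and Tcf12 were 2.69-fold to 3.37-fold higher, and Id1 and Id3, which sequester E proteins, 12.4-fold and 10.8-fold. Neurod6 had no UMI in progenitors against 130 in neurons, 10.4-fold lower at the floor of 3 counts. Without the pituitary group 11 of 13 were higher (17.9% of all genes) and 1 lower (15.2%), with a median of 1.84; the markers of other cells named above moved with this list too. Among Nkx2-1-positive neurons, 5 of the 12 counted in this list were at least 2-fold lower (4.32% of all genes), among them Neurod6 (17.1-fold) and Neurod2 (4.99-fold), none was higher (1.82%), and the median was −0.29 against −0.02 over all genes. The markers of other cells that were lower in the same neurons are those given for the members. Between Nkx2-1-positive and negative progenitors 1 of 11 was higher (5.84% of all genes), Id4 by 4.24-fold, and 1 lower (7.92%), Id2 by 2.37-fold. Without the pituitary group Id4 was 2.75-fold higher, the only one of 10 (5.65% of all genes), and 2 were lower (4.44%), Id2 no longer among them at 1.71-fold.

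Genes of the step from precursor to neuron lay on both sides. Of 19 counted, 3 were at least 2-fold higher in progenitors (20.4% of all genes), namely the cell cycle inhibitors Btg2 (4.76-fold) and Cdkn1c (4.14-fold) and Btbd17 (2.39-fold), and 9 were lower (13.8%), such as Tubb3 (12.4-fold) and Elavl3 (8.31-fold), with a median of −0.87 against 0.14 over all genes. Insm1, at 47.5 against 56.2 CPM, and Gadd45g, at 60.8 against 56.8, were close to equal. Without the pituitary group 3 were higher (17.9% of all genes) and 11 lower (15.2%), with a median of −1.22, and Insm1 was 2.41-fold lower while Gadd45g was still close to equal, 1.12-fold higher. In cycling progenitors 9 of 18 were at least 2-fold lower (10.9% of all genes) and none higher (5.63%), with a median of −1.05 against −0.10 over all genes, among them Insm1 (3.65-fold) and Gadd45g (2.68-fold), and 12 of 16 were lower without the pituitary group (11% of all genes), Insm1 by 4.19-fold and Gadd45g by 4.14-fold. The markers that moved in cycling progenitors are those given for the members. Without the pituitary group 4 of 7 neuron markers were again lower, and of 5 fibroblast markers 2 were lower and 1 higher. In Nkx2-1-positive neurons, Ebf1 (9.32-fold), Ebf2 (6.83-fold) and Ebf3 (5.58-fold), which act after the neurogenins in many neurons, and Insm1 (2.0-fold) were the 4 of 19 at least 2-fold lower (4.32% of all genes), with none higher (1.82%) and a median of −0.18 against −0.02 over all genes.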

How the data were processed

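A single pooled droplet library of E15 Pomc-eGfp mouse ARC tissue was analysed, and its 4 runs are held in 1 table. Per the submitters' processing notes, reads were processed with Cell Ranger 2.1.1 and STAR 2.4.0 on mm10, and Seurat 2.0 was used afterwards. The authors deposited whole UMI counts for each gene in each barcode, without normalization. Cells with 200 to 4500 genes, at most 10% mitochondrial UMIs and at most 10 Hba-a1 UMIs were kept. No doublet caller was run: the upper limit on genes was the only filter, and counts were repeated without the 5% of cells with the most UMIs.

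Counts were summed over the cells of a class and scaled to CPM. Shares carry Clopper-Pearson, CPM Poisson and ratios conditional binomial 95% intervals. All cover counting error only, and a class at 0 entered ratios at 3 counts. Genes with at least 20 UMIs over both classes were counted as higher or lower from 2-fold. Pairs were counted from 2 times the number expected under independence, with a lower bound above 1. Shares were repeated with each cell thinned to 2167 UMIs, which leaves out 635 cells. Cells with at least 10 UMIs over fibroblast, vascular and macrophage markers, no Sox2 and at most 1 Stmn2 formed the vessel group.

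No test was run, since the cells form 1 library and cannot be assigned to a run or an embryo. Named genes are the 7 members, the genes of 3 lists (Notch pathway, other bHLH and Id genes, precursor to neuron), single-gene markers and, for each member with at least 50 cells, the 5 genes with the highest ratio among those in at least 20% of its cells. Members and lists were chosen with earlier results of these data known. The comparisons outside the pituitary and vessel groups, and of Nkx2-1 over all cells, were added after seeing the data. Promoters come from RefSeq on GRCm38.p6, where all 7 members matched. Python 3.11.15, numpy 2.4.6, scipy 1.17.1 and matplotlib 3.10.9 were used, and the scripts were tested on simulated data. Results for 2 genes of the lists and marker sets, which are counted in their totals, are not reported here.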

Additional observations from a re-analysis of the deposited data

Results flagged for a closer look

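The limits on genes, mitochondrial UMIs and hemoglobin left out 114 barcodes, which enter no comparison, and 3 members had more UMIs there than the 3 counts taken as the floor for a count of 0. Neurod1 had 23 UMIs in 11 of these barcodes (12.5 CPM), Nhlh2 had 14 in 9 (7.58 CPM) and Neurod4 had 8 in 6 (4.33 CPM).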

How the results depend on the processing

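Under the alternatives, 86 repeated counts of members or pairs stayed within 1.5 times the reported count and 28 did not. Of the repeated log2 ratios, 154 stayed within the interval of the reported value, 25 lay outside it and a further 2, of a counted member, changed sign. The cause of these differences was not tested. Members higher in progenitors than in neurons numbered 0 with a 5% mitochondrial limit, with Sox2 at 2 or more, or at 4-fold, and 2 with every barcode, with thinned cells, with the mean of single-cell CPM, without the deepest 5% of cells, with neurons at 5 or more Stmn2, or at 1.5-fold. Members lower there numbered 2 with the 5% limit and without the pituitary and vessel groups, and 3 with Sox2 at 2 or more. The log2 ratio of Neurod4 turned to −0.10 without these groups and to −0.90 with Sox2 at 2 or more. In cycling progenitors 2 members were lower with thinned cells and 2 without the groups. In Nkx2-1-positive progenitors 1 was lower with the 5% limit, 1 with thinned cells and 1 without the groups, each time Neurog2, and 1 (Nhlh2) was higher with Nkx2-1 at 2 or more UMIs. At 4-fold, 2 members were lower in Nkx2-1-positive neurons and 3 in all positive cells. None (0) was higher in all positive cells at 4-fold, with thinned cells or with Nkx2-1 at 2 or more. With detection at 2 UMIs, 4 pairs were counted in all cells, 0 in progenitors and 1 in neurons. Progenitors outside the groups gave 5 pairs, and neurons gave 3 with expectations within depth classes. Of 12 chosen counts of genes of the 3 lists repeated without the pituitary progenitors, 10 stayed within 1.5 times the reported count. The others were 1 Notch gene higher in cycling progenitors, and 2 other bHLH and Id genes lower in Nkx2-1-positive progenitors. Counts outside these 12 moved too. In Nkx2-1-positive progenitors Notch genes went from 2 higher and 1 lower to 0 and 2. Genes of the step from precursor to neuron went there from 1 higher and 3 lower to 0 and 1. In cycling progenitors other bHLH and Id genes went from 1 lower to 0, with 2 higher both times. No paired analysis was possible because the 4 runs are 1 library and cells are not mapped to runs, and leaving out a replicate could not be run for the same reason. Neurog1 and Neurog3, with 31 and 22 UMIs, have wide intervals at this depth.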
